A study of Rattus norvegicus with 6 samples.

Results

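The family of miR-103 and miR-107 in these rat INS-1 libraries consists of 3 miRNA loci, Mir103a1, Mir103a2 and Mir107, and was examined together with the 3 pantothenate kinase genes that host them, Pank3, Pank2 and Pank1. Members were picked by symbol (rows named as mir-103 or mir-107 loci, plus the host genes), with no measured value in the rule, which gave 6 of the 32883 genes listed and 3 of the 458 miRNA genes recognised by symbol. Sequencing of small RNAs covered 6 clonal lines, all made from INS-1(832/13)::mCherry cells, a rat insulinoma line that secretes insulin and carries a human insulin transgene and a mouse Ins2 reporter fused to mCherry. The control group held lines 5-9, 2 and 16 and the PWS (Prader-Willi syndrome) group held lines 3, 19-1 and 19-4, with 1 library per line, all grown in 7.5 mM glucose without any treatment. In every line the silent maternal copy of the PWS imprinted domain had been deleted by genome editing, and in the PWS lines the active paternal copy had been deleted as well. Control lines 2 and 16 and all PWS lines descend from line 5-9, and lines 19-1 and 19-4 are subclones of 1 edited line, so that p-values measure the spread between related clones. In such cultures a smaller share of cells with a miRNA and less of it per cell cannot be told apart.

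miR-103 and miR-107 are a small, ancient vertebrate family of miRNAs whose precursors lie in introns of the pantothenate kinase genes. Pantothenate kinases carry out the first, rate-controlling step in the synthesis of coenzyme A from vitamin B5. Mature miRNAs direct Argonaute proteins to mRNAs that pair with their seed, the stretch near the 5′ end, and both miRNAs are known for lowering insulin sensitivity in liver and fat, where caveolin-1 (Cav1) is a described target. The question posed by the design was whether these abundant β-cell miRNAs, which lie outside the deleted domain, stood at another level in the PWS lines.

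The mature sequences (RefSeq, assembly GRCr8, 5′ to 3′) are shown first because they set what the reads can tell apart, with the seed, bases 2 to 8, in capitals.
rno-miR-103-3p: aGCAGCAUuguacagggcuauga
rno-miR-107-3p: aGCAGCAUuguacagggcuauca
The 2 miRNAs share their seed, and among 692 distinct mature rat sequences in the reference no other one had it. Over 23 bases they differ at 1, G22C, with the miR-103 base first and positions counted from the 5′ end. A read that ends before that base thus matches both miRNAs.

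The precursor hairpins are shown with the mature miRNA in capitals, since Mir103a1 and Mir103a2 give the same product from different loci.
Mir103a1: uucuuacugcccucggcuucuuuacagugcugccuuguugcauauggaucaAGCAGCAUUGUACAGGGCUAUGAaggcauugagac
Mir103a2: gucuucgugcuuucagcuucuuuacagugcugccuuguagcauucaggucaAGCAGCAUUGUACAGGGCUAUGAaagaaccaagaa
Mir107: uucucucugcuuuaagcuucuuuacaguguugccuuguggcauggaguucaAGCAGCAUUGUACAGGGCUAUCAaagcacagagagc
In GRCr8 the Mir103a1 hairpin lies at chr10:20748474-20748559 on the plus strand within Pank3. The Mir103a2 hairpin lies at chr3:138963227-138963312 on the plus strand within Pank2, and that of Mir107 at chr1:241750418-241750504 on the minus strand within Pank1. Each locus has the strand of its host gene. The GRCr8 positions locate the printed sequences only, because the deposited reads were placed on another build, Rnor_6.0. In the 3 hairpins the mature miRNA starts at base 52 and ends at base 74, and aligned pairs of hairpins were identical at 80.2% to 83.0% of positions. None of the hosts lies between the outer genes of the PWS domain, although Pank1 and Mir107 share chromosome 1 with it.

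Depth ran from 7373691 to 16480475 reads per library, and the values below are normalized reads, that is, reads divided by the DESeq2 size factor of the library. Snord116, the snoRNA family of the deleted domain, had 4251 to 10516 reads per control library and 2 to 3 per PWS library, as the genotype in each label states. The β-cell miRNA Mir375 ranged from 558022 to 833397 normalized reads, and all 8 β-cell markers examined had reads (limma called 0 of 8, with 1, Ins2, at an unadjusted p under 0.05). Of 14 miRNA markers of other cell types, 8 had a row under the symbol searched, and their summed level was 112 to 137 normalized reads in control and 109 to 150 in PWS libraries, with Mir145 at 0 throughout (limma called 0 of the 3 tested, with 0 at an unadjusted p under 0.05). Rows under other symbols are in neither the sum nor these counts. Mir124-1, Mir124-2 and Mir124-3, of the neural marker miR-124, averaged 196, 194 and 186 in controls and 105, 113 and 116 in PWS lines. Mir1b (36.5 and 28.7) and Mir451a (3.32 and 1.89) were lower. Lines 2 and 19-4 stood somewhat apart: over 603 genes that averaged 100 normalized reads or more, within-group pairs that held one of them differed by a root mean square of 0.60 to 0.75 on the log2 scale, and the other pairs by 0.40 to 0.45.

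Mir103a1 and Mir103a2 were both abundant and nearly equal in every line. Mir103a1 (ENSRNOG00000035503) had 145311, 125544 and 131738 normalized reads in control lines 5-9, 2 and 16, and 122598, 138329 and 108514 in PWS lines 3, 19-1 and 19-4. Mir103a2 (ENSRNOG00000035496) had 145278, 126301 and 134247 in the control lines and 123091, 137590 and 107781 in the PWS lines, in the same order. For both loci line 5-9 was highest and line 19-4 lowest, while line 19-1 exceeded 2 of the 3 control lines, so the groups overlapped. Reads of Mir103a1 made up 49.5% to 50.2% of the pair in all libraries, and the exact 95% interval of that share held 50% in 5 of 6 libraries. The exception was line 16, at 49.5% (exact 95% interval 49.4% to 49.7%). Intervals of this kind cover counting error only. All reads of the 6 members were the same under both counting options deposited by the authors. How the aligner placed reads that match both loci is not given in the sources used here, so whether a read was counted at one locus or at both was not tested, and the near-even split, the Mir103 total and the shares carry that limit. Since the loci share a mature sequence, the values of the single loci cannot be read as separate products.

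**Figure D1:**
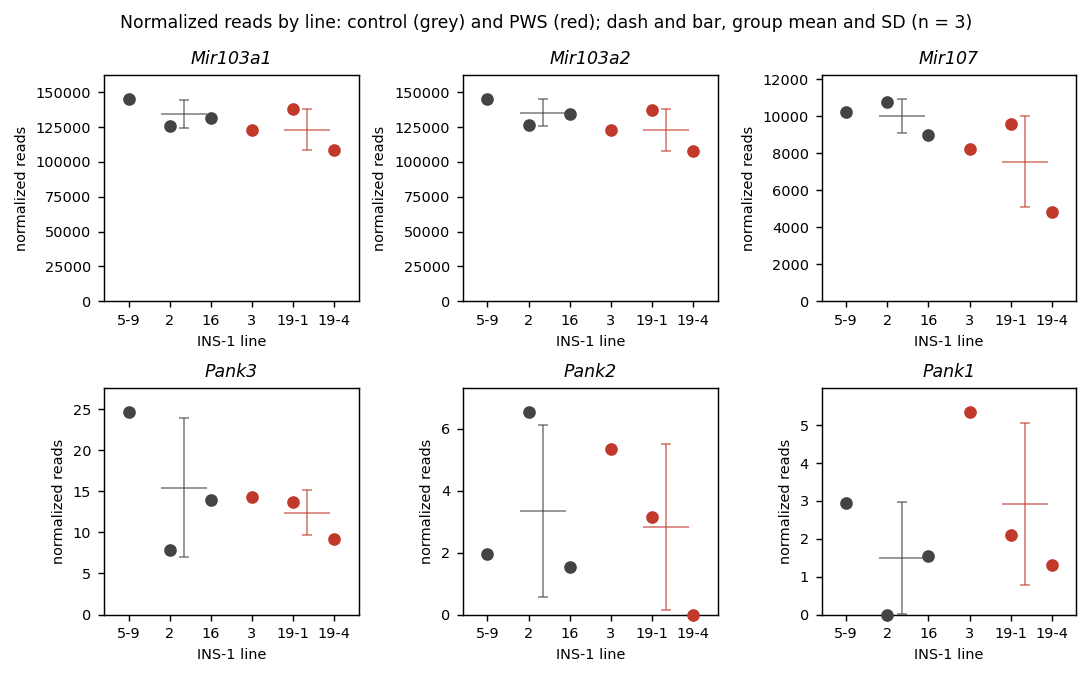
Normalized reads of the 6 genes (vertical axes, starting at 0) in each INS-1 line (horizontal axes), with control lines in grey and PWS lines in red, and the group mean and SD (n = 3) as a dash with a bar. Mir103a1 and Mir103a2 show the same pattern, Mir107 is lowest in line 19-4 at 4829, and the host genes hold between 0 and 24.6 normalized reads.

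The Mir103 total, which joins both loci, averaged 269473 ± 19607 normalized reads in the controls, against 245968 ± 29814 in the PWS group (SD, n = 3). Single lines stood at 290589, 251844 and 265985 in controls (5-9, 2, 16) and at 245690, 275919 and 216294 in PWS (3, 19-1, 19-4). PWS lines thus averaged 91.3% of the control mean, with 1 PWS line above 2 controls. The log2 fold change, PWS minus control on the log2(normalized reads + 1) scale, was -0.14 ± 0.19 (SE), and limma did not call it (adjusted p = 0.919). Its 95% interval reached from -0.54 to 0.27, which corresponds to a change between -31.2% and 20.3%. The value was -0.047 without line 19-4, -0.081 without control line 5-9 and -0.22 without PWS line 19-1, and -0.041 when libraries were scaled to their miRNA reads. The single loci gave -0.13 ± 0.19 for Mir103a1 and -0.14 ± 0.19 for Mir103a2 (SE), with limma adjusted p of 0.932 and 0.918.

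Mir107, the locus of the other mature product of the family, was present at a far lower level and varied more among the PWS lines. It (ENSRNOG00000035639) had 10257, 10805 and 8980 normalized reads in control lines 5-9, 2 and 16. The values of PWS lines 3, 19-1 and 19-4 were 8213, 9607 and 4829. Line 19-4 was below every other library, whereas line 19-1 lay above control line 16, so the groups overlapped here too. Control lines averaged 10014 ± 936 and the PWS group 7550 ± 2457 (SD, n = 3), or 75.4% of the control mean. The log2 fold change was -0.46 ± 0.26 (SE) with a 95% interval of -1.002 to 0.08, and limma did not call it (adjusted p = 0.855; unadjusted p = 0.0891). Without line 19-4 the log2 fold change was -0.17 (adjusted p = 0.988), and without PWS line 19-1 it was -0.66 (limma adjusted p = 0.903; unadjusted p = 0.0266). With lines 2 and 19-4 both left out it was -0.11, so leaving out line 19-4 moved the value by more than 1.5 times.

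Called genes here are those with a limma adjusted p under 0.1, and 1.28% of the 4292 genes tested were called. Of the 6 members, 4 reached the filter for testing, an average of 5 normalized reads or more, and none of these was called by limma in either direction. With all lines, their smallest unadjusted p was that of Mir107, above 0.05, and edgeR and DESeq2 called none either. The share of all tested genes whose control and PWS ranges did not overlap was 11.2%, and the ranges of all 6 members overlapped. Summed over the 3 loci, the family stood at 279487 ± 19496 in control lines against 253518 ± 32203 in the PWS group (SD, n = 3). That gave a log2 fold change of -0.15 ± 0.19 (SE; limma adjusted p = 0.918), which was -0.052 without line 19-4, -0.092 without control line 5-9, -0.24 without PWS line 19-1 and -0.051 with scaling to miRNA reads.

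**Figure D2:**
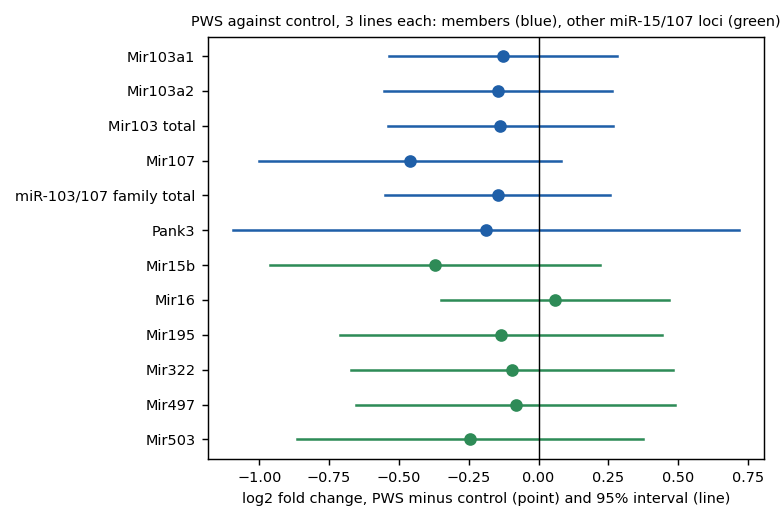
Log2 fold change, PWS minus control (horizontal axis; points) with 95% intervals from limma (lines), for the tested members and totals in blue and other loci of the miR-15 and miR-107 group in green, with 3 lines per group. Every interval spans 0, the Mir107 estimate lies furthest from it at -0.46, and that of Pank3 has the widest interval.

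Shares within a library do not depend on its size factor and were compared next, by exact two-sided permutation tests for which 3 lines against 3 can give no p below 0.1. The family took 2.87%, 2.95% and 2.90% of miRNA reads in control lines 5-9, 2 and 16, and 2.90%, 2.96% and 2.57% in PWS lines 3, 19-1 and 19-4. Line 19-4 was the low one, and the other 5 lines lay within 0.1 percentage points of one another. The group means were 2.91% ± 0.0410 and 2.81% ± 0.209 (SD, n = 3; exact permutation p = 0.8), and without line 19-4 the PWS mean was the higher one by 0.0230 percentage points. Mir107 made up 3.41%, 4.11% and 3.27% of the family in the control lines and 3.23%, 3.36% and 2.18% in the PWS lines. Line 2 was thus highest and line 19-4 lowest, with exact 95% intervals of 4.027% to 4.2015% and 2.11% to 2.25% that lie apart from the shares of all other libraries. The means were 3.60% ± 0.454 and 2.93% ± 0.647 (SD, n = 3; exact permutation p = 0.2, and 0.3 after Benjamini-Hochberg adjustment over the 3 shares). Their difference of -0.669 percentage points was -0.297 without line 19-4, -0.410 without control line 2 and -0.887 without PWS line 19-1. Expressed as a ratio, the Mir103 loci together had 23.3 reads per read at the Mir107 locus in line 2, 28.3 to 29.9 in lines 5-9, 16, 3 and 19-1, and 44.8 in line 19-4. These are counts per locus, and reads too short to reach base 22 match both mature miRNAs. The share of Mir103a1 in its pair was 49.8% ± 0.243 in controls against 50.1% ± 0.147 in the PWS group (SD, n = 3; exact permutation p = 0.2, and 0.3 adjusted). This difference of 0.273 percentage points was 0.140 without control line 16 and 0.379 without control line 5-9.

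**Figure D3:**
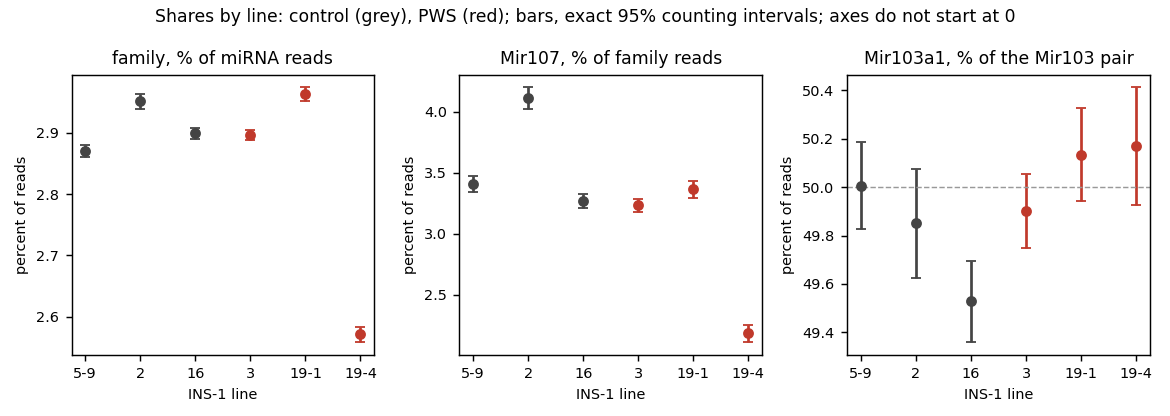
Family share of miRNA reads (left), Mir107 share of family reads (centre) and Mir103a1 share of the pair (right), in percent of reads (vertical axes, which do not start at 0), by INS-1 line, control in grey and PWS in red, with exact 95% counting intervals. Line 19-4 is lowest for the first 2 shares, at 2.57% and 2.18%, and the third share stays between 49.5% and 50.2%, with a dashed line at 50%.

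By control mean, Mir103a2 ranked as number 17 and Mir103a1 as number 18 among the 334 miRNA genes with reads in control lines. The gene just above, Mir101-2, had 141968 ± 17912 normalized reads and the one just below, Mirlet7b, had 124230 ± 15715 (SD, n = 3), and these neighbours differed from the pair by less than the spread between lines. Across single libraries the rank of the pair moved only from 15 to 19. The Mir103 total would rank as number 12 if no read was counted at both loci. Mir107 ranked as number 60, between Mir101a at 10663 ± 541 and Mir194-1 at 9338 ± 3713 (SD, n = 3), which again lay within the spread. Its rank was 55 in line 2, 58 to 64 in lines 5-9, 16, 3 and 19-1, and 72 in line 19-4. Because mature miRNAs have nearly the same length, no length correction was made. Whether the libraries captured different miRNAs evenly was not tested, so these are ranks of reads.

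**Figure D4:**
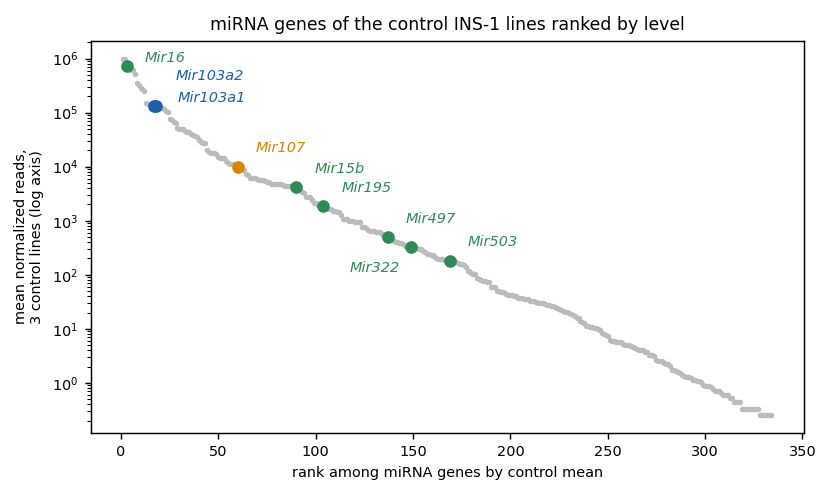
Mean normalized reads over the 3 control lines (vertical axis, log scale) against the rank of each miRNA gene (horizontal axis), with the Mir103 loci in blue, Mir107 in orange, other listed loci of the miR-15 and miR-107 group in green and all other miRNA genes in grey. Mir103a2 and Mir103a1 stand side by side at ranks 17 and 18, Mir107 stands at rank 60, and Mir16 is the green locus above them.

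The same 6 letters, AGCAGC, stand near the 5′ end of a wider set of miRNAs that includes miR-15 and miR-16, regulators best known from the cell cycle, and they are in capitals in this set, which shows how the seeds are offset.
rno-miR-103-3p: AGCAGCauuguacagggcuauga
rno-miR-16-5p: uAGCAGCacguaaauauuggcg
rno-miR-15b-5p: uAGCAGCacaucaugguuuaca
rno-miR-195-5p: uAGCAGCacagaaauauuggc
rno-miR-497-5p: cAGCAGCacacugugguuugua
rno-miR-322-5p: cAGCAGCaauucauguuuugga
rno-miR-503-5p: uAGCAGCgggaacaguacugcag
The letters begin at base 1 in miR-103 and miR-107 and at base 2 in the others. Searched on the miRNA strand within the first 8 bases, they were found in 8 of 692 distinct mature rat sequences (1.16%), which are the 7 printed here and miR-107. Such a match is a description and shows no shared target.

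Of the 7 loci listed for this wider group outside the family, 6 had a row and were tested, Mir15a having none under that symbol. The rows Mir322-2 and Mir503-2 were not in the list and are left out of these counts. By limma 0 of 6 were called, 0 had an unadjusted p under 0.05, and edgeR and DESeq2 called 0 as well. Their median log2 fold change was -0.11, against 0.0048 over all tested genes and -0.078 over the 1087 genes that averaged 20 normalized reads or more, as all 6 loci did, and 5 of 6 had a lower mean in PWS lines. Mir16, whose hairpin lies next to that of Mir15b, was the most abundant at 727903 ± 114304 in controls against 756351 ± 93413 in the PWS group (SD, n = 3). Mir15b had 5101, 3845 and 3438 normalized reads in control lines 5-9, 2 and 16 and 3902, 3967 and 2012 in PWS lines 3, 19-1 and 19-4, giving a log2 fold change of -0.37 ± 0.28 (SE; limma adjusted p = 0.882). Like Mir107 it was lowest in line 19-4, at 51.6% of the median of the other 5 libraries, where Mir107 stood at 50.3% and the Mir103 total at 81.3%. Mir16 went the other way in that line, at 123% of the median of the others.

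Low values in line 19-4 were common among miRNAs. Of 177 miRNA genes that averaged 100 normalized reads or more, 95 (53.7%) had their lowest value there, as did all 3 loci of the family and 4 of 6 of the wider group. The median of these 177 genes in line 19-4 was 76.5% of the median of the other 5 libraries, and 23 of them, Mir107 included, stood at or below the level of Mir107. Line 19-4 was also the shallowest library, at 7373691 reads. Line 2 came next at 7634142, and Mir107 was highest there, at 10805 normalized reads. The part that depth or library composition plays in the low values of line 19-4 was not tested.

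The patterns over the 6 libraries were compared by the root mean square difference of log2 values after centring each gene on its own mean, among 600 genes that averaged 100 normalized reads or more. The Mir103 total was most like Mir30d (0.062), Mir322-2 (0.066) and Mir146b (0.067), against a median of 0.29 over the candidates. By its symbol, Mir322-2 is a further row of Mir322, a locus of the wider group. Mir107 was most like Mir204 (0.049), a β-cell miRNA that had 15144, 17162 and 13918 normalized reads in control and 12800, 14079 and 7725 in PWS lines. Next came a Y RNA row, ENSRNOG00000056288 (0.092), and Mir125a (0.092), against a median of 0.44. The 2 products of the family were not closest to one another: their difference of 0.28 put Mir107 at place 285 from the Mir103 total and the Mir103 total at place 117 from Mir107. This likeness rests on 6 libraries, among which Mir107 was highest in line 2 and lowest in line 19-4, and it describes these libraries only.

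**Figure D5:**
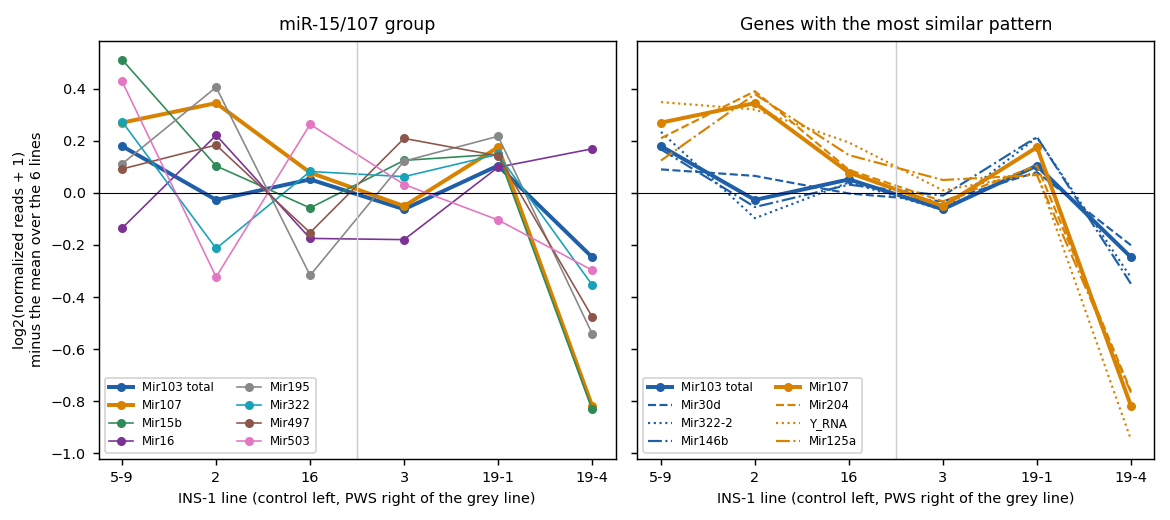
Log2(normalized reads + 1) minus the mean over the 6 lines (vertical axis) by INS-1 line, with control lines left and PWS lines right of the grey vertical line, for the miR-15 and miR-107 group (left panel) and for the 3 genes most like the Mir103 total (blue) and most like Mir107 (orange; right panel); connecting lines only join the points of a gene. Mir107, Mir15b and Mir204 drop together in line 19-4, and the Mir103 total falls less there.

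The host genes were seen only as rare fragments, since these libraries held RNAs of up to the size of snoRNAs. Pank3, the host of Mir103a1, had 25, 6 and 18 reads in control lines 5-9, 2 and 16 and 24, 13 and 7 in PWS lines 3, 19-1 and 19-4. In normalized reads these were 24.6, 7.84 and 13.9 in control and 14.3, 13.7 and 9.23 in PWS lines, with both the highest and the lowest value among the controls. Its log2 fold change of -0.19 ± 0.43 (SE) was not called (limma adjusted p = 0.956), and without control line 5-9 it was 0.20. Pank2, the host of Mir103a2, had 9 reads over the control and 12 over the PWS lines, or 1.97, 6.54 and 1.54 normalized reads in control and 5.35, 3.15 and 0 in PWS lines. Pank1, the host of Mir107, had 5 and 12 reads, or 2.95, 0 and 1.54 normalized reads in control and 5.35, 2.10 and 1.32 in PWS lines. Both missed the filter for testing. A library without a read allowed up to 3 reads, which is 3.92 normalized reads in line 2 and 3.96 in line 19-4.

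Pooled over lines, the PWS to control ratio of reads per size factor was 0.814 for Pank3 (exact 95% counting interval 0.529 to 1.25), 1.21 for Pank2 (0.467 to 3.25) and 2.18 for Pank1 (0.713 to 7.88). All 3 intervals include 1, and they cover counting error only. For Pank2 the means of the lines pointed the other way, at 3.35 ± 2.77 normalized reads in controls against 2.83 ± 2.69 in the PWS group (SD, n = 3), or 84.5% of the control mean. Its log2 fold change of -0.37 was 0.11 without control line 2, 0.42 without PWS line 19-4 and -0.92 without PWS line 3. For Pank1, line 3 held 9 of the 12 PWS reads, and its log2 fold change of 0.73 was 0.31 without line 3, 0.17 without control line 2 and 1.16 without control line 5-9. In line 19-4, where Mir107 was lowest, Pank1 had 1 read, too few to set the host beside its miRNA. Whether host transcription followed the miRNAs was thus not detectable from these few fragments.

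Other genes of the pathway gave no call. Of 4 further coenzyme A genes, Ppcs and Coasy, which act after the kinases, passed the filter, and by limma 0 of 2 were called, with 0 at an unadjusted p under 0.05. Ppcs had 6.90 ± 0.968 normalized reads in controls against 9.30 ± 2.22 in the PWS group, and Coasy 6.31 ± 1.46 and 4.17 ± 1.91 (SD, n = 3). Of 10 mRNAs described as targets of miR-103 or miR-107, 4 were tested and limma called 0 of 4, with 0 at an unadjusted p under 0.05 and a median log2 fold change of -0.08. Dicer1, the enzyme that cuts miRNA precursors, had 16.9 ± 3.90 and 12.1 ± 2.75 normalized reads (SD, n = 3), and Dapk1, a kinase linked to cell death, 10.3 ± 0.963 and 9.41 ± 4.16. Cav1 and Cdk6 had 0 reads in all libraries, which allows 1.78 to 3.96 normalized reads per library. Of 8 genes of insulin receptor signalling, 4 were tested and limma called 0, with 0 at an unadjusted p under 0.05. Irs2, an adaptor of the insulin receptor, led with 45.3 ± 6.95 normalized reads in controls against 44.4 ± 15.2 in the PWS group, ahead of Akt2 at 10.3 ± 5.16 and 7.36 ± 3.60 (SD, n = 3).

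Of 9 genes of miRNA processing, 5 were tested and limma called 0, with 0 at an unadjusted p under 0.05. edgeR and DESeq2 likewise called 0 of the tested genes in each of these lists. Dgcr8, the partner of Drosha in precursor cleavage, stood out with 565 ± 96.0 normalized reads in controls against 584 ± 137 in the PWS group (SD, n = 3). Of its 3583 reads, 31 remained when reads assigned to more than 1 gene were left out. Nearly all of this level thus came from reads that were also assigned to another gene, and it cannot be read as Dgcr8 mRNA. The miRNA row Mir1306 had similar means, at 558 normalized reads in controls and 577 in the PWS group. Whether these were the same reads was not tested. Dicer1 ranked next. Neither the host genes nor these fragments carry enough reads for small differences to be seen.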

How the data were processed

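Small RNA libraries from 3 control and 3 PWS lines were analysed. Per the labels, the authors used UMI-tools 1.0.0, cutadapt 1.18, Bowtie2 2.3.4.2, HTSeq 0.11.2 and DESeq2, with the build Rnor_6.0. The deposited values are a signal: gene counts divided by DESeq2 size factors, under 2 HTSeq options for reads that match several genes. Whole reads were recovered for 100% of values (tolerance 0.001) and gave depth, shares and exact intervals. Deposited columns of the authors' comparison (fold changes and p-values) were not used. The option that counts such reads at every gene was the main table. Genes averaging 5 normalized reads or more were fitted on log2(normalized reads + 1) with limma 3.58.1 (trended variance, R 4.3.3), adjusted after Benjamini and Hochberg over all genes tested and called under 0.1. Shares were compared by exact two-sided permutation. edgeR 4.0.16 and DESeq2 1.42.0 were run on the recovered reads as alternatives. The scripts were tested on simulated data. Named were the members, from each of the 5 lists of pathway, target and related genes every called gene and the 2 genes with the highest control mean, the 3 genes nearest in pattern to the Mir103 total and to Mir107, and the rank neighbours. The 2 cell marker lists had no such rule. Cav1, Cdk6, Mir145, Mir375, Ins2, Snord116, the Mir124 rows, Mir1b, Mir451a, Mir503-2 and Mir1306 fall outside this rule and were named after their values were seen. The members and lists were chosen with earlier results of these data known. Sequences were matched by symbol to RefSeq (GRCr8) for 8 of 10 loci, and Mir103a1 was read within its hairpin.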

Additional observations from a re-analysis of the deposited data

How the results depend on the processing

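Of 206 values recomputed under alternative settings, 199 kept their direction and 7 took the opposite sign. Some settings cannot move a fold change, so the count of kept directions overstates the agreement. With the filters, the robust fit, the replicate block and the other threshold, the Mir107 value stayed at -0.46. The Pank3 log2 fold change was 0.20 without control line 5-9 (leave-one-out range -0.57 to 0.20). The difference in the family share of miRNA reads was 0.0230 percentage points without PWS line 19-4 (leave-one-out range -0.173 to 0.0230), and 0.0452 with lines 2 and 19-4 left out, a setting chosen after seeing the data. The other 4 belong to Pank2, which was not tested at the main filter: its log2 fold change of -0.37 became 0.072 with the subclones averaged, 0.11 without control line 2, 0.42 without PWS line 19-4 and 0.90 without both lines. For these the cause was not tested. Of these values, 141 had a limma, edgeR or DESeq2 adjusted p, and 0 of 141 were called. The Mir107 log2 fold change ranged from -0.66 to -0.17 on leaving out 1 line, and its adjusted p from 0.728 to 1.000 over all settings. Its share of the family differed by -0.669 percentage points with all lines, -0.297 without line 19-4, -0.410 without line 2 and -0.0379 without both. The Mir103 total ranged from -0.22 to -0.047 on leaving out 1 line. Pank1 and Pank2 were tested only with a lower filter or none. With the replicate number as a block, Mir107 stood at -0.46 (limma adjusted p = 0.733) and 56 genes were called against 55. Same-numbered lines correlated in their deviations at 0.414, 0.218 and -0.0574 over 1087 genes, so the numbers were not taken as pairs. The few fragment reads limit what the host genes can show.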
